A study of Mus musculus with 16 samples.

Results

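The collagen, laminin and integrin genes were followed in the transcriptome of primary hippocampal neurons grown with or without lipoproteins of the human apoE isoforms. The families were chosen with earlier results of these data known, and their members by symbol, as every one of the form Col, Lam or Itg followed by its chain number, with the integrin-binding protein genes left out. The rule found 83 of the 48397 genes counted, namely 44 collagens, 11 laminins and 28 integrins. Enough reads for a test, at least 10 counts in 4 or more of the 16 libraries, were present for 77 of them (42 collagens, all 11 laminins and 24 integrins). *Itgbl1*, which was tested, and *Itgb2l*, which was not, match the rule by name, but *Itgbl1* encodes a secreted protein that is no integrin chain, and neither was placed in a chain class.

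Neurons came from CD1 mouse pups aged P0 to P2 with wild type *Apoe*, so every group, the control included, kept the mouse gene. Cultures received cytosine arabinoside against dividing cells, and 10-fold concentrated conditioned medium was added at 10 and at 13 DIV, with RNA taken at 17 DIV. To raise apoE output the astrocytes were given 25-hydroxycholesterol, and apoE levels were evened out with *Apoe*-/- medium. The media came from immortalized astrocytes homozygous for the human *APOE* ε2, ε3 or ε4 allele (the apoE2, apoE3 and apoE4 groups) or from *Apoe*-/- astrocytes (control neurons). Each of the 4 groups had 4 libraries, described in the study's methods as independent neuronal cultures. Each kind of medium came from its own astrocyte line, so an effect of the isoform and one of anything else that line secreted cannot be told apart.

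Collagens are trimers of alpha chains that form fibrils (types I, II, III, V and XI), the network of basement membranes (type IV), beaded filaments (type VI) or membrane-bound and fibril-associated forms. Laminins join an alpha, a beta and a gamma chain into the other network of basement membranes. Integrins pair an alpha with a beta subunit at the cell surface and bind these proteins, some through the RGD motif of fibronectin and vitronectin and others by recognizing collagen or laminin directly. In brain the richest source of collagens and laminins is the vessel wall and the meninges, while neurons and astrocytes carry integrins and a few collagens of their own.

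Reads assigned to genes numbered 14087723 to 34248172 per library, with a median of 22221832, and levels are given as CPM, counts scaled to this library total after TMM normalisation. The 8 neuron markers (*Map2*, *Tubb3*, *Rbfox3*, *Snap25* and others) were all present and summed to 2894 to 7268 CPM, and the 7 astrocyte markers to 522 to 6101 CPM. The 8 mural cell markers summed to 14.4 to 205 CPM, the 8 fibroblast and meninges markers to 10.4 to 105 CPM, the 8 microglia and macrophage markers to 7.17 to 43.2 CPM and the 7 endothelial markers to 2.21 to 9.25 CPM. No marker was at 0 in every library. In such bulk RNA, fewer cells of a type and less RNA per cell cannot be told apart.

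The sequences just upstream of 6 members are shown because 4 of them (*Itga5*, *Itgav*, *Col4a6* and *Col8a1*) were the members with such a sequence that passed the test in all 3 isoform groups, *Col4a5* lies head to head with *Col4a6*, and *Col28a1* was called between apoE2 and both other isoforms. They come from RefSeq on GRCm38.p6, which held a window for 60 of the 83 members, and run 5′ to 3′. All but that of *Itga5* run up to the annotated start of the gene. The *Itga5* window ends at 103366792, short of the annotated start at 103366763. Capitals mark 4 motifs found on either strand. The GC box is GGGCGG, or CCGCCC on the other strand. The CCAAT box reads ATTGG there. The AP-1 motif is TGANTCA on both. The TATA box is TATAAA, or TTTATA.
Itga5: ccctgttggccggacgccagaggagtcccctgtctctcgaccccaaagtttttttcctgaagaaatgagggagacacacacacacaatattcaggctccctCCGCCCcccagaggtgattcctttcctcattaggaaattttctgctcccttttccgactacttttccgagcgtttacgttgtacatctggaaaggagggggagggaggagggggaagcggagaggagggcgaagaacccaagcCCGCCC
Itgav: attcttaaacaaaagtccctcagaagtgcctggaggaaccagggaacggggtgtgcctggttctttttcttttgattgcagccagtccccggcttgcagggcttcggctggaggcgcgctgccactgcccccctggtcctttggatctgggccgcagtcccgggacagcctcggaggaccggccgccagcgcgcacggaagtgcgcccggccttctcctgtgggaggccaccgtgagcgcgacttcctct
Col4a6: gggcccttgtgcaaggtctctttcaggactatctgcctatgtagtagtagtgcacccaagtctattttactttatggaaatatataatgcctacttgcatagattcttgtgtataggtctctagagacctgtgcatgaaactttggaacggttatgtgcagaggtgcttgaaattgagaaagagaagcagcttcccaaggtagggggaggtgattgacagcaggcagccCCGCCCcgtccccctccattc
Col4a5: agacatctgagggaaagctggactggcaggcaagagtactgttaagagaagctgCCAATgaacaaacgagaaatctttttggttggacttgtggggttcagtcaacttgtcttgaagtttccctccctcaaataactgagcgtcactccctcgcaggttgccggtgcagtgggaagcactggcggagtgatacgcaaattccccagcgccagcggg
Col8a1: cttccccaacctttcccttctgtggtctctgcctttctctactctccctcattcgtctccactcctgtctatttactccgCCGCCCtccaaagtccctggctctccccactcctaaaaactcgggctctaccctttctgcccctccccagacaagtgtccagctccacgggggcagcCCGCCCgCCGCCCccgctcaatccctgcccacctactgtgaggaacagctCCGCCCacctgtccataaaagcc
Col28a1: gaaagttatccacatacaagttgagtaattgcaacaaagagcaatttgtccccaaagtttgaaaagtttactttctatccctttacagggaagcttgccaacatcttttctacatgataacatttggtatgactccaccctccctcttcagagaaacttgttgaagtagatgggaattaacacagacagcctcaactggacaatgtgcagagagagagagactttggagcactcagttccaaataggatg

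The windows lie at chr15:103366792-103367041 on the minus strand for *Itga5*, chr2:83724147-83724396 on the plus strand for *Itgav*, chrX:141474077-141474326 on the minus strand for *Col4a6* and chrX:141475169-141475384 on the plus strand for *Col4a5*. Those of *Col8a1* and *Col28a1*, both on the minus strand, lie at chr16:57754738-57754987 and chr6:8192618-8192867. The annotated starts of *Col4a6* and *Col4a5* are 1308 bases apart and point away from each other. A GC box was found 4 times before *Col8a1*, 2 times before *Itga5* and once before *Col4a6*. Among all 32851 RefSeq windows of 250 bases, 32.7% held a GC box, 33.8% a CCAAT box, 6.75% an AP-1 motif and 12.4% a TATA box, and among the 66 windows of members the shares were 48.5%, 27.3%, 3.03% and 7.58%. A match describes letters only, and binding was not measured.

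In control neurons the integrin beta 1 gene *Itgb1*, whose product pairs with most alpha subunits, had the highest level per length of all members, 25.2 ± 7.19 CPM per kb of exon (SD, n = 4). *Itgbl1* followed with 14.8 ± 6.47 CPM per kb and *Itgb5*, a beta partner of alpha V, with 11.5 ± 8.0. The levels per kb of the alpha subunits *Itgav* and *Itga3*, a laminin receptor chain, were 7.20 ± 2.78 and 5.27 ± 1.12 CPM per kb. Among collagens the first places went to the basement membrane chains *Col4a1* (10.7 ± 4.03 CPM per kb) and *Col4a2* (6.69 ± 1.07), then to *Col25a1*, a transmembrane collagen made by neurons (5.36 ± 0.885), the fibrillar *Col5a2* (4.37 ± 4.54) and the fibril-associated *Col12a1* (3.77 ± 1.28). Laminin levels per kb were led by *Lamb1* (7.35 ± 1.95), *Lamb2* (5.41 ± 4.09) and *Lamc1* (5.16 ± 1.39), whereas the first alpha chains, *Lama5* and *Lama2*, had 1.31 ± 0.795 and 0.836 ± 0.148 CPM per kb. The control libraries of neighbours in these 3 orders overlapped, except that *Lamc1* lay above *Lama5* in all 4. In all, 35 of the 83 members had a mean level over 1 CPM per kb.

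**Figure D1:**
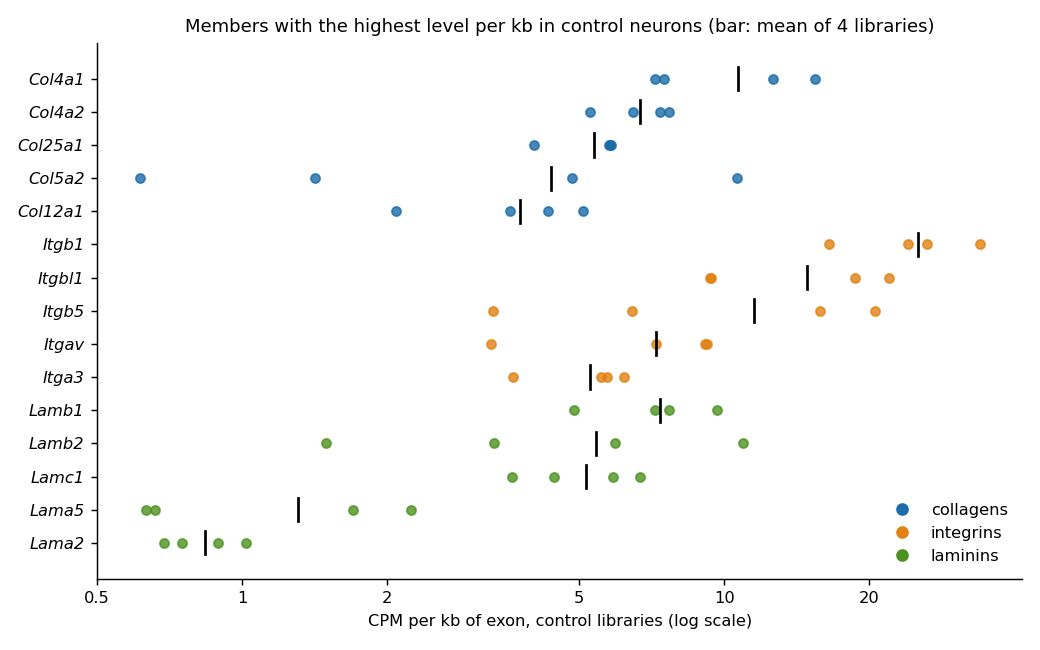
Level per kb of exon (x axis, log scale, CPM per kb) of the 5 members of each family with the highest mean in control neurons; each point is 1 of 4 control libraries and the black bar their mean. The points of *Col5a2* run from 0.615 to 10.6 CPM per kb, while those of *Col4a2* lie between 5.27 and 7.67.

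The spread between control libraries was wider for these genes than for most. The highest control library had a median of 3.58 times the lowest over the 77 members, against 1.63 over all 17331 genes tested. The fibrillar chain *Col1a1*, of type I collagen, had 21.9, 1.85, 4.95 and 38.5 CPM in control libraries 1 to 4, and its partner chain *Col1a2* had 36.5, 3.41, 5.02 and 44.5. Replicates 1 and 4 were thus high and 2 and 3 low for both chains, and they were so in every isoform group too. Between replicate numbers lay a median of 76.2% of a member's variance in log2 CPM and between the 4 groups 10.7%, against 55.5% and 14.5% over all genes tested. The mean over groups was highest in numbers 1 and 4 for 48 of 77 members (62.3%), against 33.7% of all genes tested. Because cultures with the same number deviated together in every pair of groups, each comparison is given both without and with the replicate number as a block.

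Without the block, no member passed an adjusted p under 0.05 in any of the 6 comparisons by edgeR's quasi-likelihood test. The share of all genes that passed was 0% for apoE2, 0.00577% for apoE3 and 0.196% for apoE4 against control, and 0.144% for apoE4 against apoE3, 0.225% for apoE4 against apoE2 and 0% for apoE3 against apoE2. The members with an unadjusted p under 0.05 numbered 5, 7, 0, 2, 6 and 2 of 77 in the same order, beside 475, 1114, 567, 821, 914 and 401 of all 17331 genes. DESeq2 passed 0 members in 5 comparisons and 1, the laminin chain *Lama2*, lower with apoE4 than with apoE2.

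The thresholds of the study's own criterion, a change of at least 2-fold with an unadjusted p under 0.05, were applied to edgeR's quasi-likelihood p, which is not the test the study used. Without the block, 2 members passed for apoE2 (background 0.715% of all genes) and 4 for apoE3 (2.07%), with 0 for apoE4 (1.17%). Those of apoE2 were *Col2a1*, the cartilage-type fibrillar collagen, with a log2 change of 1.76 ± 0.58 (SE, n = 4 per group), and the transmembrane *Col13a1* with -1.34 ± 0.50. In apoE3 treated neurons they were *Itga5* (1.72 ± 0.77), which encodes the alpha chain of the fibronectin receptor, *Col6a1* (1.31 ± 0.54), a chain of beaded filaments, *Col2a1* (1.27 ± 0.58) and the fibril-associated *Col19a1* (-1.17 ± 0.35). Between isoforms the criterion was met by 1 member for apoE4 against apoE3 (1.34%), 3 for apoE4 against apoE2 (1.29%) and 1 for apoE3 against apoE2 (0.733%), all of them among *Col13a1*, *Col28a1* and *Col2a1*. One library decided some of these. Without apoE3 replicate 4 the apoE3 count fell to 1 and the log2 changes of *Col6a1* and *Itga5*, at 0.83 and 1.11, no longer met it, nor did that of *Col2a1*, which missed it under 11 of 23 alternatives. Likewise without control replicate 2 the count was 1. Without control replicate 1 the count was 2, whereas it was 9 without control replicate 4 or without apoE3 replicate 2.

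With the replicate number as a block, each treated culture was compared with the control of the same number, although the sources used here do not say what a number stands for. ApoE3 lipoproteins went with the broadest change, 24 of 77 members higher and 1 lower at an adjusted p under 0.05 (edgeR's quasi-likelihood test, as for all calls below), against a background of 7.86% of all genes higher and 3.57% lower. ApoE4 had 14 members higher (background 3.14%) and 0 lower (0.115%), with 1 lower at an unadjusted p under 0.05 and 0 by DESeq2 with the block. ApoE2 had 8 higher (1.18%) and 2 lower (0.542%). For apoE2, apoE3 and apoE4 the members had a median log2 change of 0.25, 0.40 and 0.33, while that of all genes tested was 0.01, 0.01 and 0.00. A positive change was found for 46, 57 and 58 of 77 members, and for 53.6%, 52.1% and 49.9% of all genes. These 3 comparisons share the control libraries.

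**Figure D2:**
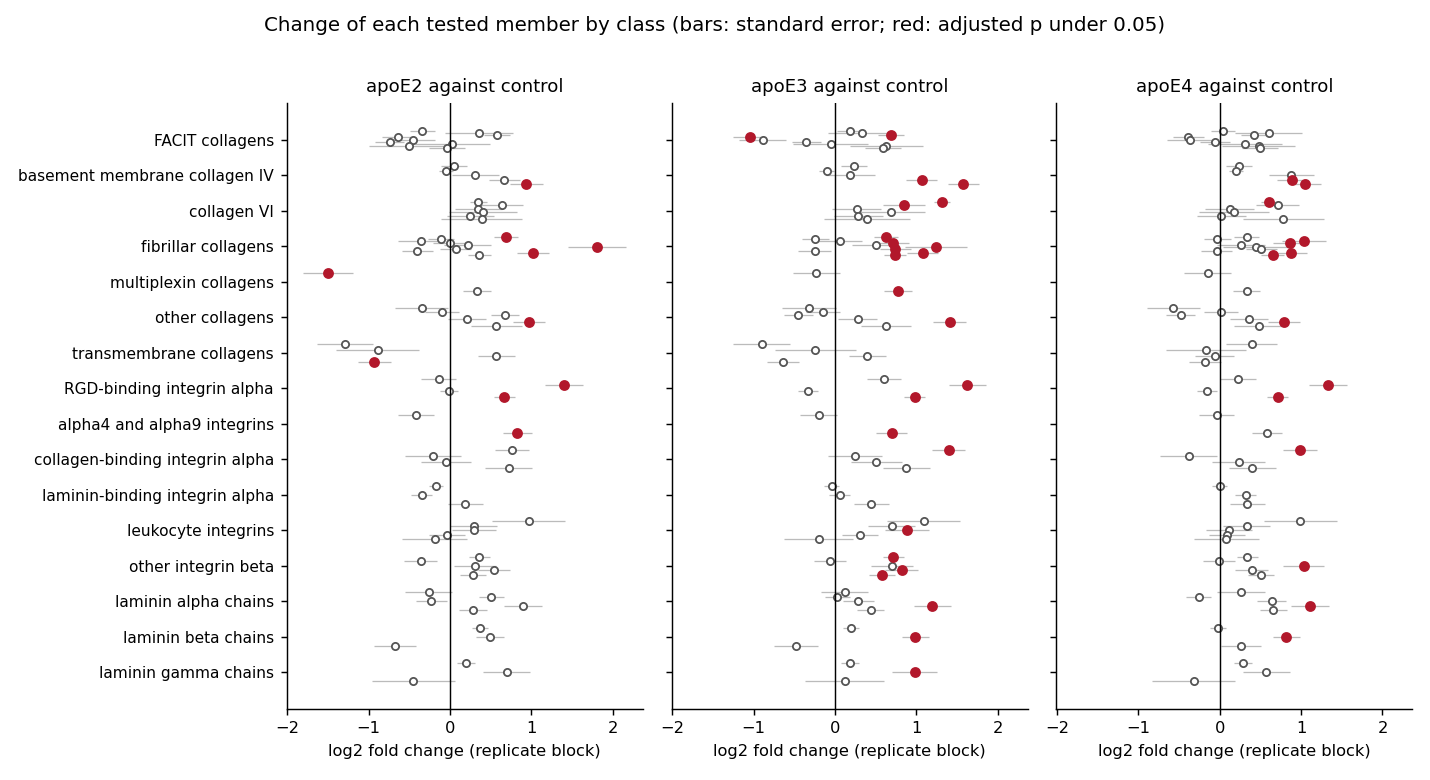
Log2 fold change against control with the replicate block (x axis) of 76 tested members in rows by class, 1 panel per isoform (*Itgbl1*, which has no class, is left out). Points are members and bars standard errors; red points passed an adjusted p under 0.05, and most of them lie to the right of 0, most often in the apoE3 panel.

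In the 3 isoform groups, 5 members were higher than in control neurons in each, namely the integrin alpha chains *Itga5* and *Itgav* and the collagens *Col4a6*, *Col5a2* and *Col8a1*. Another 7 were higher with apoE3 and apoE4 (*Col1a2*, *Col4a5*, *Col5a3*, *Col6a1*, *Itga1*, *Lama4* and *Lamb2*), 3 with apoE2 and apoE3 (*Col2a1*, *Col11a1* and *Itga9*) and 0 with apoE2 and apoE4 alone. ApoE3 had 10 calls to itself, apoE4 2 (*Col1a1* and *Itgb4*) and apoE2 2 (*Col15a1* and *Col25a1*, both lower). The share of all genes called in the same combinations was not counted. These comparisons share the control libraries, and more of all genes were higher with apoE3 (7.86%) than with apoE2 (1.18%) or apoE4 (3.14%). The sharing is therefore not read as particular to these families. A call in 1 isoform and not in another does not show that they differ, and the direct tests between isoforms are given further on.

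*Itga5* had 2.27, 0.602, 0.940 and 2.99 CPM in control replicates 1 to 4, 5.51, 1.33, 3.98 and 5.91 with apoE2, 6.64, 1.19, 3.27 and 11.3 with apoE3, and 6.58, 0.853, 2.82 and 7.87 with apoE4. Each treated culture lay above the control of its own number, although each isoform group overlapped with control, and number 2 was the lowest culture in every group. The change was 2.64-fold with apoE2 (log2 1.40 ± 0.23, adjusted p = 0.0083), 3.09-fold with apoE3 (1.63 ± 0.23, adjusted p = 0.000676) and 2.51-fold with apoE4 (1.33 ± 0.23, adjusted p = 0.00448). The product of *Itgav* pairs with several beta chains to bind vitronectin and fibronectin. Its levels were 97.9, 35.2, 77.4 and 99.1 CPM in control neurons, 176, 51.9, 135.5 and 132 with apoE2, 206, 56.9, 127 and 258 with apoE3, and 149.6, 48.4, 137 and 188 with apoE4, again higher in 4 of 4 pairs for each isoform. The log2 changes of *Itgav* were 0.67 ± 0.13, 0.98 ± 0.13 and 0.71 ± 0.13 (adjusted p = 0.0205, 0.000562 and 0.00757).

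*Col4a6* and *Col4a5*, whose upstream sequences are printed above, encode chains that assemble together in the basement membranes of a few tissues. *Col4a6* had 7.76, 1.89, 5.71 and 23.1 CPM in control neurons, 22.3, 3.77, 11.8 and 27.4 with apoE2, 36.9, 4.70, 12.9 and 65.9 with apoE3, and 23.2, 2.99, 10.1 and 47.7 with apoE4. It rose 1.92-fold with apoE2 (log2 0.94 ± 0.20, adjusted p = 0.0262), 2.98-fold with apoE3 (1.58 ± 0.19, adjusted p = 0.000298) and 2.07-fold with apoE4 (1.05 ± 0.19, adjusted p = 0.00692), and was higher in every pair. *Col4a5* had 18.9, 4.77, 10.2 and 44.0 CPM in control neurons, 40.2, 7.35, 19.9 and 40.8 with apoE2, 46.0, 7.69, 22.3 and 95.6 with apoE3, and 38.7, 6.14, 19.7 and 91.1 with apoE4. It rose with apoE3 (log2 1.07 ± 0.19, adjusted p = 0.00257) and apoE4 (0.89 ± 0.19, adjusted p = 0.0148), and 3 of 4 pairs were higher with apoE2. Per kb of exon the level of *Col4a5* was 1.48 to 3.0 times that of *Col4a6* over the 16 libraries. The abundant pair *Col4a1* and *Col4a2* had changes of 0.23 ± 0.16 and -0.10 ± 0.09 with apoE3 and of 0.24 ± 0.16 and 0.20 ± 0.09 with apoE4 (log2), and neither passed the test with any isoform.

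**Figure D3:**
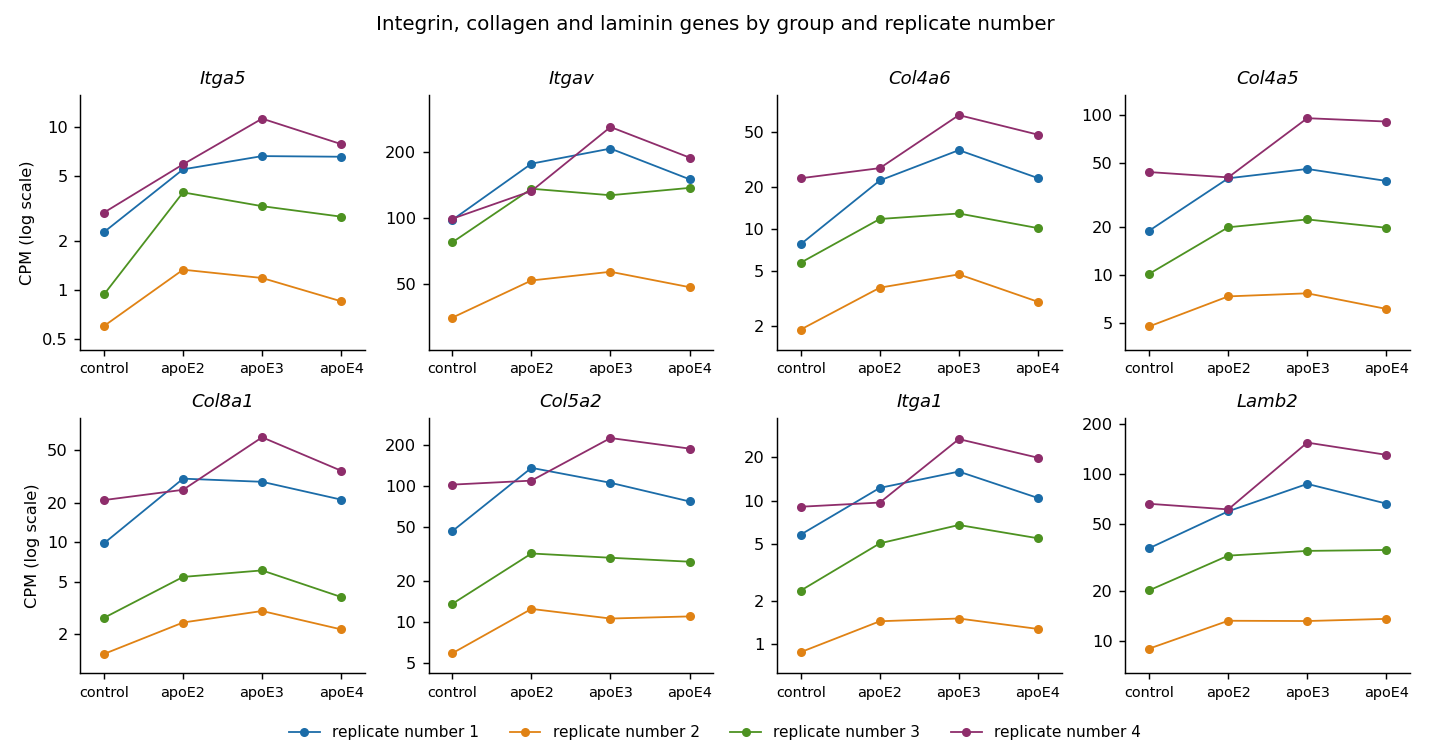
Level (y axis, CPM, log scale) of 8 members in the 4 groups (x axis), with a line joining the 4 cultures of the same replicate number. Number 2 is the lowest line in each panel, and in the *Itga5*, *Itgav* and *Col4a6* panels each line is higher in every isoform group than in control.

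*Col5a2* encodes a chain of the fibrils that nucleate type I collagen, and *Col8a1* a short-chain network collagen. *Col8a1* had 9.80, 1.40, 2.65 and 20.9 CPM in control neurons, 30.5, 2.44, 5.43 and 25.1 with apoE2, 28.9, 2.98, 6.09 and 63.0 with apoE3, and 21.1, 2.16, 3.82 and 35.04 with apoE4. Its log2 changes were 0.97 ± 0.20, 1.41 ± 0.20 and 0.79 ± 0.20 (adjusted p = 0.0256, 0.00066 and 0.0454). *Col5a2* ranged more widely within a group, from 5.90 to 102 CPM in control neurons and from 10.6 to 223 with apoE3, and its log2 changes were 1.02 ± 0.20, 1.08 ± 0.19 and 0.88 ± 0.19 (adjusted p = 0.0165, 0.00318 and 0.021). Both were higher in 4 of 4 pairs with each isoform. The other fibrillar chains called with apoE3 were *Col11a1*, *Col5a3*, *Col3a1*, *Col1a2* and *Col2a1*. Thus 6 of the 10 fibrillar collagens tested rose with apoE3 (background 7.86%), 3 with apoE2 (1.18%) and 4 with apoE4 (3.14%).

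The type I chains, which make up the bulk of fibrils in connective tissue, differed between isoforms, as tested further on. In apoE4 treated neurons *Col1a1* reached 49.7, 5.52, 13.3 and 49.0 CPM, above the control of the same number in 4 of 4 pairs (log2 1.03 ± 0.27, adjusted p = 0.0499), while with apoE2 and apoE3 only 2 of 4 pairs were higher. That *Col1a1* call was lost when any of 12 of the 16 libraries was left out. *Col1a2* reached 61.9, 5.66, 10.5 and 80.5 CPM with apoE4 (0.86 ± 0.20, adjusted p = 0.0272) and 68.1, 4.74, 6.47 and 82.8 with apoE3 (0.71 ± 0.20, adjusted p = 0.0313). *Col3a1*, which shares fibrils with type I collagen, had 32.5, 3.69, 4.81 and 39.7 CPM in control neurons and 62.7, 5.27, 6.81 and 71.2 with apoE3 (0.74 ± 0.19, adjusted p = 0.0225). The fibrillar *Col11a1*, of type XI collagen, was spread less, with 24.6, 36.5, 28.2 and 45.3 CPM in control neurons and 53.1, 56.2, 41.9 and 63.0 with apoE2 (0.69 ± 0.15, adjusted p = 0.0327).

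By class, the fibrillar collagens had a median log2 change of 0.14, 0.67 and 0.48 with apoE2, apoE3 and apoE4, and the 6 type VI genes one of 0.37, 0.54 and 0.40. The 9 fibril-associated collagens had medians of -0.34, 0.18 and 0.31 and gave 2 calls in all, both with apoE3 (*Col16a1* higher, *Col19a1* lower). The 4 transmembrane collagens had medians of -0.91, -0.44 and -0.12, with *Col25a1* as their only call. Of the 2 multiplexins, *Col18a1*, the source of endostatin, rose with apoE3 (0.78 ± 0.17, adjusted p = 0.0092) and *Col15a1* fell with apoE2.

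*Col6a1*, at chr10:76708792-76726168 on the minus strand, had the smallest adjusted p of all members. It had 13.3, 8.38, 9.86 and 25.8 CPM in control neurons, 17.2, 9.18, 13.2 and 35.1 with apoE2, 28.2, 22.9, 24.7 and 66.5 with apoE3, and 20.1, 11.5, 13.6 and 47.4 with apoE4. The 2.49-fold rise with apoE3 (log2 1.32 ± 0.10, adjusted p = 1.61e-05) and the 1.53-fold rise with apoE4 (0.61 ± 0.10, adjusted p = 0.00364) were each seen in 4 of 4 pairs. Its partner chain *Col6a2* rose with apoE3 (0.85 ± 0.26, adjusted p = 0.0432) in 3 of 4 pairs, and the other 4 type VI genes passed with no isoform.

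Of the integrin subunits beyond *Itga5* and *Itgav*, the collagen receptor chain *Itga1* rose 2.65-fold with apoE3 (log2 1.40 ± 0.20, adjusted p = 0.00081) and 1.98-fold with apoE4 (0.99 ± 0.21, adjusted p = 0.0141). Its values were 5.81, 0.882, 2.37 and 9.08 CPM in control neurons, 12.3, 1.45, 5.05 and 9.71 with apoE2, 15.95, 1.51, 6.77 and 26.8 with apoE3, and 10.4, 1.28, 5.48 and 19.9 with apoE4. The common beta chain *Itgb1* rose with apoE3 from 107, 67.4, 98.1 and 139 CPM to 212, 89.2, 134 and 286 (0.72 ± 0.13, adjusted p = 0.00321). With apoE3 the beta chains *Itgb5* (0.82 ± 0.20, adjusted p = 0.0145) and *Itgb8* (0.58 ± 0.16, adjusted p = 0.0343), both partners of alpha V, rose as well. None of the 3 laminin-binding alpha chains, *Itga3*, *Itga6* and *Itga7*, passed against control with any isoform, and their log2 changes ranged from -0.35 to 0.45. Across the 3 comparisons 2 of their 9 tests had an unadjusted p under 0.05, and DESeq2 with the block called 0. Of the 5 leukocyte integrins tested, *Itgax* alone passed, with apoE3 (0.89 ± 0.27, adjusted p = 0.0433), beside 0 of 8 microglia and macrophage markers called (3 at an unadjusted p under 0.05 by edgeR, 0 by DESeq2). *Itgam* of the same class shares 68.7% of its exons with a neighbouring gene model on its strand and is uncertain.

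*Itga9*, whose product binds osteopontin and tenascin, had 2.27, 2.69, 1.36 and 2.78 CPM in control neurons, 4.31, 4.04, 2.71 and 5.04 with apoE2, 4.12, 2.90, 2.47 and 5.54 with apoE3 and 2.58, 3.95, 2.60 and 4.24 with apoE4. It was above control in 4 of 4 pairs with each isoform and rose with apoE2 (log2 0.83 ± 0.18, adjusted p = 0.0357) and apoE3 (0.70 ± 0.19, adjusted p = 0.0268), while with apoE4 the log2 change was 0.58 ± 0.19 (adjusted p = 0.121). *Itgb4*, the beta chain of hemidesmosomes and of Schwann cells, passed with apoE4, at 4.07, 0.597, 1.49 and 11.1 CPM against 1.45, 0.562, 0.940 and 4.35 in control neurons (1.03 ± 0.25, adjusted p = 0.0351). With apoE3 it had 2.75, 0.736, 1.29 and 7.78 CPM, also above control in 4 of 4 pairs, without passing (0.70 ± 0.26, adjusted p = 0.0948). An antisense gene model overlaps 7.66% of its exon bases.

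Among laminins the alpha chain *Lama4* and the beta chain *Lamb2*, which meet in vessel and nerve basement membranes, rose with apoE3 and with apoE4. *Lamb2* had 36.0, 9.07, 20.2 and 66.4 CPM in control neurons, 87.2, 13.2, 34.7 and 154 with apoE3, and 66.6, 13.6, 35.2 and 130.1 with apoE4. Its log2 changes were 0.99 ± 0.17 (adjusted p = 0.0022) and 0.82 ± 0.17 (adjusted p = 0.0116), and those of *Lama4* 1.20 ± 0.23 (adjusted p = 0.00509) and 1.11 ± 0.23 (adjusted p = 0.0148). *Lamb1*, the other common beta chain, had 76.3, 71.4, 48.4 and 95.5 CPM in control neurons and 90.0, 75.4, 67.0 and 98.6 with apoE3, which did not pass. The level of *Lamb1* per kb was 0.883 to 4.83 times that of *Lamb2* in control neurons and 0.393 to 3.49 times with apoE3. In the apoE2 group 0 of the 11 laminins passed by edgeR, whereas DESeq2 with the block called 3. An unadjusted edgeR p under 0.05 was reached by 6 of them and by 2276 of all 17331 genes.

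The 3 members that edgeR called lower than in control neurons were all collagens. DESeq2 with the block called 5 lower with apoE2, all collagens, and 4 with apoE3, of which 1 was an integrin (*Itga8*). *Col25a1* had 74.7, 75.0, 75.5 and 52.2 CPM in control neurons and 30.0, 39.9, 51.4 and 27.1 with apoE2, groups that did not overlap (log2 -0.93 ± 0.20, adjusted p = 0.0318). *Col15a1*, a basement membrane zone collagen, had 2.59, 5.01, 0.244 and 4.30 CPM in control neurons and 0.918, 1.18, 0.191 and 1.73 with apoE2 (-1.50 ± 0.31, adjusted p = 0.0231). *Col19a1* had 26.0, 14.4, 10.5 and 24.0 CPM in control neurons and 8.78, 10.0, 6.43 and 8.05 with apoE3 (-1.05 ± 0.20, adjusted p = 0.00445), with every apoE3 library below every control library. It had 13.7, 8.73, 9.06 and 15.1 CPM with apoE2 and 18.9, 8.25, 9.46 and 21.25 with apoE4, below control in 4 of 4 pairs with both, at log2 changes of -0.64 ± 0.19 and -0.39 ± 0.19 that did not pass. Such groups without overlap were found for 2.19% of all genes with apoE2 and 2.58% with apoE3. *Col13a1* had 1.72, 1.12, 0.522 and 1.05 CPM in control neurons and 0.565, 0.572, 0.153 and 0.459 with apoE2, lower in 4 of 4 pairs, but did not pass with the block (-1.29 ± 0.34, adjusted p = 0.0764).

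*Col2a1* was low everywhere. It had 0.318, 0.361, 0.592 and 1.36 CPM in control neurons, 2.19, 1.10, 2.79 and 2.75 with apoE2, 1.14, 0.450, 2.09 and 2.64 with apoE3, and 0.407, 0.682, 1.38 and 0.715 with apoE4. The rise was 3.51-fold with apoE2 (log2 1.81 ± 0.36, adjusted p = 0.0206) and 2.36-fold with apoE3 (1.24 ± 0.38, adjusted p = 0.0458).

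The study itself listed 9 members as changed, a list it chose on these same libraries, so their direction is not independent evidence. They are *Itga5*, *Itgav*, *Col2a1*, *Col4a3*, *Col4a6*, *Col6a1*, *Col13a1*, *Col15a1* and *Col19a1*. With the block, 4 rose and 1 fell with apoE2, 5 rose and 1 fell with apoE3, and 4 rose with apoE4. *Col4a3*, a basement membrane chain, was not tested, having 12 reads in the 4 control libraries together, 46 with apoE2, 23 with apoE3 and 36 with apoE4. The other 5 untested members had 1 to 77 reads each over all 16 libraries. Those were *Col24a1*, *Itgad*, *Itgal*, *Itgb2l* and *Itgb6*.

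How far these calls rest on single cultures differed by isoform. Of the 25 apoE3 calls, 13 held with any 1 of the 16 libraries left out, namely *Col6a1*, *Col4a6*, *Col4a5*, *Col5a2*, *Col5a3*, *Col8a1*, *Itga1*, *Itga5*, *Itgav*, *Itgb1*, *Lama4*, *Lamb2* and *Col19a1*, and the count stayed between 13 and 31. The lowest counts came without control replicate 1 (13), apoE3 replicate 1 (15) and apoE3 replicate 4 (15). For apoE4 the calls of *Col6a1*, *Itga5*, *Col4a6* and *Itgav* held with any 1 library left out, and the count was 4 without control replicate 1 or apoE4 replicate 4, 6 without control replicate 3 and 8 without control replicate 4 or apoE4 replicate 3. For apoE2 none of the 10 calls held with each library left out. Without control replicate 1 the apoE2 count was 0 (*Itga5* adjusted p = 0.0508), it was 1 without apoE2 replicate 1, 2 or 3, 2 without control replicate 3, 4 without control replicate 4 and 19 without apoE2 replicate 4. That library had the most reads on genes (34248172) and 38.4% of its reads on no single gene, against 63.5 to 67.1% in the other cultures of number 4. The part of this in the count was not tested. Leaving out all 4 cultures of one number gave 0, 2, 0 and 18 calls for apoE2, 10, 23, 16 and 24 for apoE3 and 1, 11, 3 and 12 for apoE4, in the order of numbers 1 to 4. With whole numbers left out, *Col6a1* alone kept its apoE4 call each time, and 10 members kept their apoE3 call, while *Col5a3*, *Lama4* and *Col19a1* lost it at least once.

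Isoforms were then compared with each other, again within replicate numbers. Between apoE4 and apoE2, 7 members were higher with apoE4 (background 2.54%) and 4 lower (1.81%). Between apoE3 and apoE2 1 was higher (0.71%) and 1 lower (0.583%), and between apoE4 and apoE3 0 were higher (1.06%) and 1 lower (0.669%). *Col6a1* separated apoE3 from both other isoforms, *Col28a1* separated apoE2 from both, and the other calls all lay between apoE4 and apoE2. For 0 higher with apoE4 than with apoE3, DESeq2 with the block gave 4. An unadjusted edgeR p under 0.05 in either direction was reached by 18 of 77 members and by 2790 of all 17331 genes.

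*Col6a1*, with the values given above, was 1.96 times as high with apoE3 as with apoE2 (log2 0.97 ± 0.10, adjusted p = 0.000849) and 0.614 times as high with apoE4 as with apoE3 (-0.70 ± 0.10, adjusted p = 0.00241), in 4 of 4 pairs each. The second of these calls was lost with all cultures of number 3 left out (adjusted p = 0.0663). *Col28a1*, a short beaded-filament-like collagen of nerve, had 10.1, 3.53, 7.63 and 7.66 CPM in control neurons, 20.05, 6.86, 9.94 and 10.1 with apoE2, 6.56, 3.23, 6.85 and 4.09 with apoE3, and 5.97, 3.64, 6.20 and 4.04 with apoE4. The apoE2 libraries lay above all apoE3 and all apoE4 libraries, although they overlapped with control. Groups without overlap were found for 1.68% of all genes between apoE3 and apoE2 and for 3.38% between apoE4 and apoE2. Its level fell to 0.446 times the apoE2 level with apoE4 (-1.17 ± 0.18, adjusted p = 0.00174) and to 0.458 times with apoE3 (-1.13 ± 0.18, adjusted p = 0.00904), a call lost with number 1 or number 2 left out (adjusted p = 0.0831 and 0.0516).

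The 3 laminin chains called between apoE4 and apoE2 did not move together. *Lama2*, the alpha chain of nerve and muscle basement membranes, had 11.3, 16.6, 14.5 and 12.2 CPM in control neurons, 18.6, 21.6, 19.5 and 17.8 with apoE2, 16.5, 12.9, 13.2 and 13.0 with apoE3 and 11.7, 16.4, 8.91 and 9.04 with apoE4. The apoE2 libraries lay above every library of the other groups, which overlapped with each other. Of these only apoE4 against apoE2 passed (-0.77 ± 0.15, adjusted p = 0.00809), apoE2 against control having a log2 change of 0.51 ± 0.15 (adjusted p = 0.10) and apoE3 against apoE2 one of -0.48 ± 0.15 (adjusted p = 0.125). *Lamb1* was lower as well (-0.39 ± 0.10, adjusted p = 0.0395), at 90.4, 82.1, 80.7 and 116 CPM with apoE2 and 85.9, 72.4, 48.8 and 78.4 with apoE4. *Lama3*, an epithelial laminin chain, was higher with apoE4 (0.87 ± 0.19, adjusted p = 0.0137), at 2.78, 3.72, 5.92 and 5.82 CPM against 2.05, 1.49, 3.21 and 3.47.

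Of the other calls, *Itga6*, the alpha chain of a laminin receptor, had 30.3, 12.5, 28.4 and 33.3 CPM with apoE2 and 41.7, 16.8, 48.9 and 66.0 with apoE4 (0.67 ± 0.13, adjusted p = 0.00789). *Col13a1*, with 2.24, 0.796, 0.940 and 1.84 CPM in apoE4 treated neurons, was above every apoE2 library (1.68 ± 0.34, adjusted p = 0.0104). *Col1a1* had 29.7, 2.29, 4.32 and 12.3 CPM with apoE2 and 49.7, 5.52, 13.3 and 49.0 with apoE4 (1.38 ± 0.28, adjusted p = 0.00902), and *Col1a2* moved the same way (0.86 ± 0.20, adjusted p = 0.0224). *Col15a1* (1.36 ± 0.31) and *Col22a1* (0.68 ± 0.18) were higher and *Col2a1* (-1.37 ± 0.35) lower with apoE4 than with apoE2, at adjusted p = 0.0219, 0.0494 and 0.0399. *Col28a1*, *Itga6*, *Lama2* and *Col1a1* kept their calls with any library left out. With all 4 cultures of one number left out, *Lama2* lost its call without number 3 or 4 (adjusted p = 0.0954 and 0.053) and *Col1a1* without number 3 (adjusted p = 0.0666), and 2 of the comparison's calls were left without number 3. The count of 11 fell to 5 without apoE4 replicate 3 or apoE4 replicate 4 and to 6 without apoE2 replicate 2, and *Col13a1* lost its call without apoE4 replicate 4 (adjusted p = 0.0612). Between apoE4 and apoE3 the count rose from 1 to 6 without apoE2 replicate 4, 3 without apoE3 replicate 2 and 2 without apoE3 replicate 4 or apoE4 replicate 2.

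**Figure D4:**
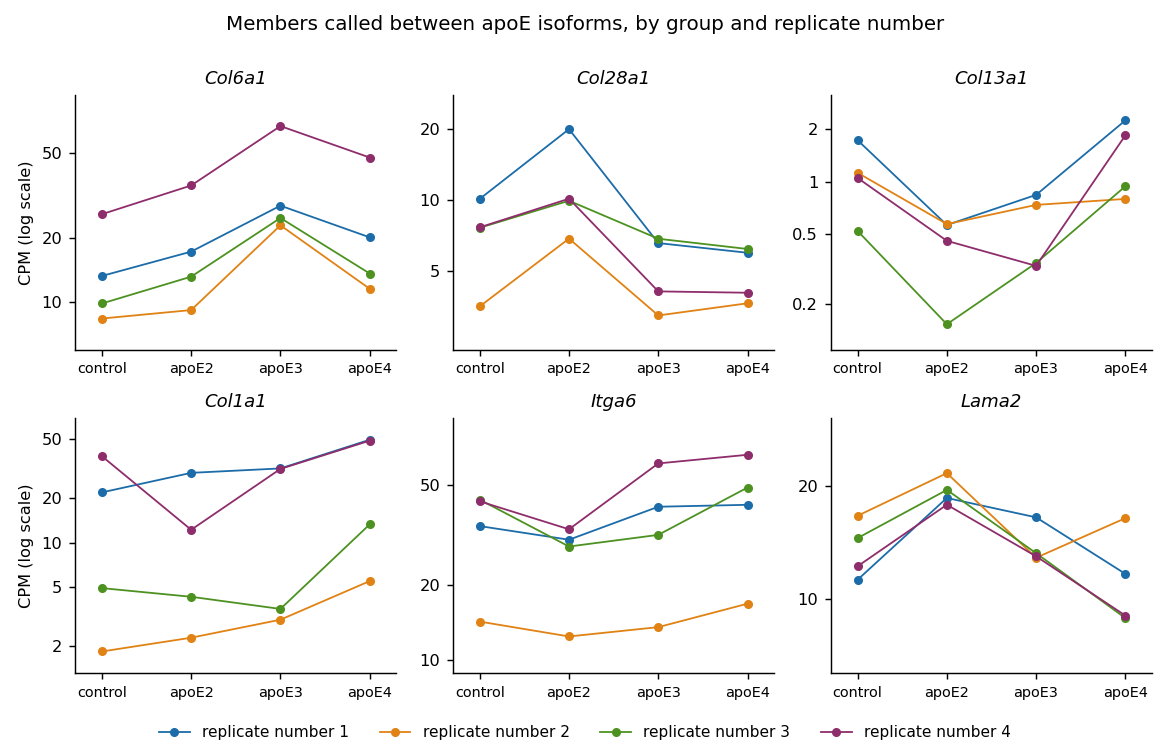
Level (y axis, CPM, log scale) of 6 members called between isoforms in the 4 groups (x axis), with a line for each replicate number. *Col6a1* peaks in the apoE3 group and *Col28a1* in the apoE2 group on all 4 lines, while *Lama2* is lower with apoE4 than with apoE2 on every line.

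Genes that work with these families were counted from lists of other matrix proteins, collagen-processing enzymes, focal adhesion proteins and non-integrin receptors. Under the block, 8 of 13 other matrix proteins tested rose with apoE3, 4 with apoE2 and 3 with apoE4, and none fell. The background of genes higher was 7.86%, 1.18% and 3.14% in that order, for this list and those that follow. Without the block no gene of these lists passed by edgeR. Fibronectin (*Fn1*), the main ligand of the integrin that *Itga5* helps to form, rose in all 3 groups, as did the integrin ligand osteopontin (*Spp1*). Of 16 genes for processing collagen chains, such as the hydroxylase *Plod1* and the chaperone *Serpinh1*, 8 rose with apoE3, 1 with apoE2 and 2 with apoE4. Of 19 focal adhesion genes 4 rose with apoE3 (*Tns3*, *Parva*, *Tln1* and *Vcl*), 3 with apoE4 and 0 with apoE2 (3 at an unadjusted p under 0.05 by edgeR, 1 by DESeq2), and their median log2 change was 0.16, 0.12 and 0.03. Of 6 non-integrin receptors the hyaluronan receptor *Cd44* rose with each isoform, *Ddr1* and *Bcam* with apoE3, and *Ddr2*, a collagen receptor, with apoE4.

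Some markers of other cell types passed under the block as well. The background of genes higher was 7.86% with apoE3, 3.14% with apoE4 and 1.18% with apoE2. Without the block no marker passed by edgeR. All 7 astrocyte markers were higher with apoE3 under the block and 3 of 7 with apoE4 (*Gfap*, *Aqp4* and *Gja1*), while with apoE2 0 of 7 passed by edgeR, 4 at an unadjusted p under 0.05 and 1 by DESeq2. Their summed level was 1312, 522, 1389 and 2573 CPM in control replicates 1 to 4, 2616, 739.5, 1891 and 2492 with apoE2, 3858, 808, 2396 and 6101 with apoE3 and 2558, 708, 2260.3 and 4780.4 with apoE4. Of 7 mural cell markers tested 3 were higher with apoE3 (*Notch3*, *Cspg4* and *Kcnj8*) and 2 with apoE4. With apoE2, 0 passed by edgeR, 4 at an unadjusted p under 0.05 and 1 by DESeq2. *Kcnj8* was near 0, with a mean of 0.097 CPM in control neurons. The mural sums were 34.5, 14.4, 19.1 and 82.5 CPM in control neurons and 69.2, 21.7, 25.1 and 205 with apoE3. They ranged from 19.4 to 75.5 with apoE2 and from 17.1 to 139.6 with apoE4. *Acta2*, which was not called, made up as much as 60.2 CPM in control neurons and 148 with apoE3. With apoE3, 1 of 7 fibroblast and meninges markers (*Fmod*) and 3 of 7 oligodendrocyte lineage markers were higher. With apoE2 and with apoE4, 0 of either list passed by edgeR. At an unadjusted p under 0.05 there was 1 fibroblast marker with each, and DESeq2 called 1 with apoE2 and 0 with apoE4. Of the oligodendrocyte lineage markers 2 and 1 had such a p, and DESeq2 called 0. Between apoE4 and apoE2, *Islr* alone of the fibroblast list passed, higher with apoE4, while log2 changes over that list ran from -0.81 to 1.38. The fibroblast sums ranged from 10.4 to 45.9 CPM in control neurons, 12.1 to 75.4 with apoE2, 11.7 to 104.7 with apoE3 and 12.2 to 82.4 with apoE4. Of 3 endothelial markers tested *Flt1* was higher with apoE3 and apoE4. With apoE2, 0 of them passed by edgeR, 2 at an unadjusted p under 0.05 and 0 by DESeq2. Of 8 microglia and macrophage markers 0 passed with any isoform. Of 6 markers of dividing cells *Top2a* rose with apoE2 (log2 1.84) and apoE3 (2.59) and was lower with apoE4 than with apoE3 (-1.91), and with apoE4 against control 0 passed by edgeR, 4 at an unadjusted p under 0.05 and 0 by DESeq2. The sum of the dividing cell markers ranged from 6.94 to 17.6 CPM in control neurons, 18.99 to 28.8 with apoE2, 26.3 to 40.03 with apoE3 and 11.7 to 30.5 with apoE4. Most of its rise with apoE2 and apoE3 lay in *Top2a*, with means of 4.16 CPM in control neurons, 14.7 with apoE2 and 23.5 with apoE3. Those of *Mki67* were 5.24, 5.14 and 7.74. Of 8 neuron markers *Gad1* and *Snap25* fell and *Tubb3* rose with apoE3. The neuron marker sum was lowest in apoE3 replicate 4, 2894 CPM, against 4042 in control replicate 4. Like the collagens, the astrocyte, mural and fibroblast sums were highest in replicate 4 of the apoE3 group, and the part of these cells in the members' changes was not tested.

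**Figure D5:**
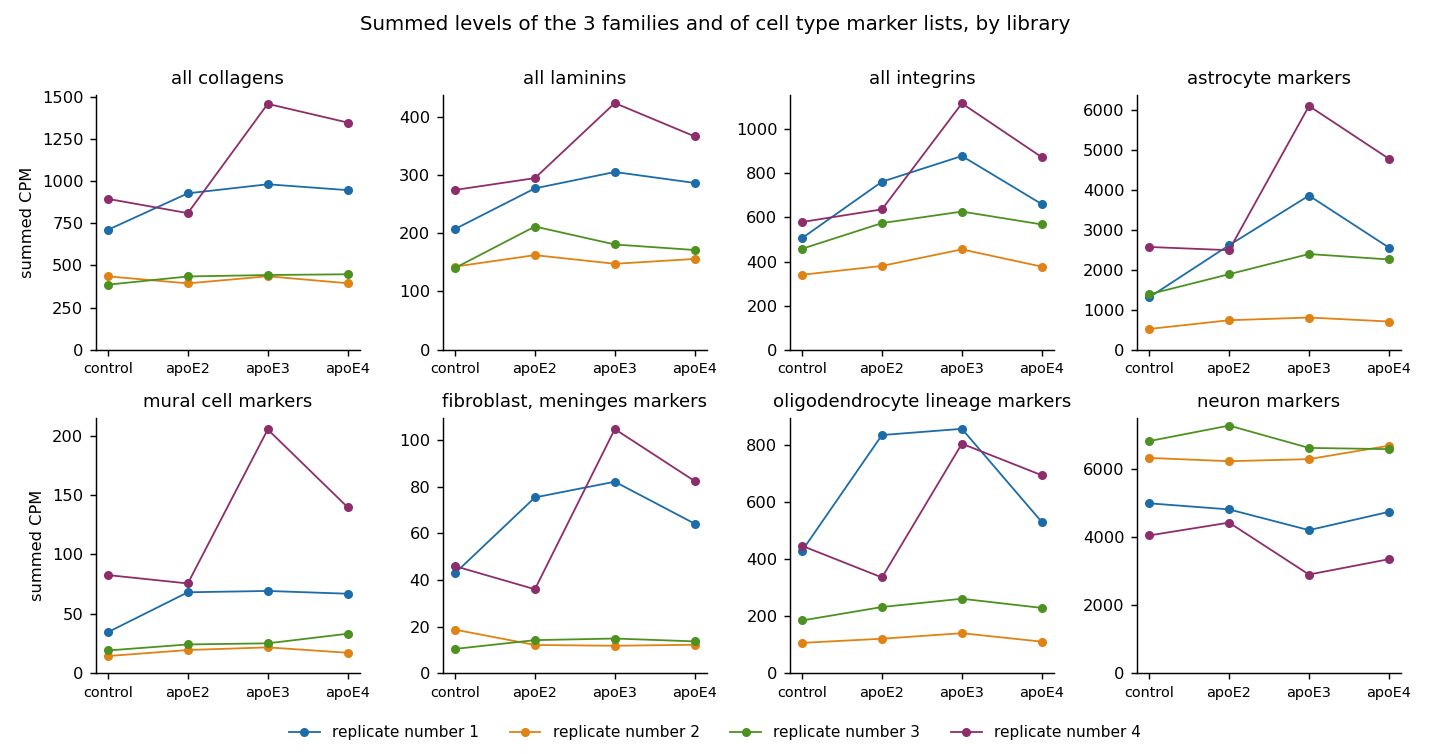
Summed CPM (y axis) of all collagens, laminins and integrins and of 5 marker lists in the 4 groups (x axis), with a line for each replicate number. The collagen sum in replicate 4 runs from 895 CPM in control to 1458 with apoE3, and the astrocyte marker sum in the same cultures from 2573 to 6101 CPM, while the neuron marker sum falls from 4042 to 2894.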

How the data were processed

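Ribosome-depleted RNA of 16 cultures was sequenced, and the authors mapped reads to mm10 with STAR and counted them per gene with HTSeq. The deposited values are raw counts per gene, 1 table per library; the annotation and strand setting are not given in the sources used here. Totals for reads on no single gene (38.4 to 73.7% of a library) were left out. Among them 2 libraries had 38.4 and 38.6% (apoE2 replicate 4 and apoE4 replicate 2) and the others at least 51.4%. All genes with at least 10 counts in 4 libraries (17331) were fitted in edgeR 4.0.16 (R 4.3.3, TMM, quasi-likelihood test, 1 coefficient per group), with Benjamini-Hochberg adjustment over all of them, without and with the replicate number as a block. The labels number the cultures 1 to 4 in each group, and deviations from group means correlated between same-numbered libraries at r = 0.346 to 0.823 in every pair, over 0.1 (different numbers: -0.73 to 0.556), so the numbers were taken as pairs. Exon lengths and positions come from GENCODE M21. DESeq2 1.42.0, other filters and scaling, and leaving out libraries were alternatives. The steps were tested on simulated counts.

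Groups came from the sample labels. Members and gene lists were chosen with earlier results of these data known. Named members are those past either criterion, up to 5 per direction with the smallest p under the block in each comparison, the study's 9 and the 5 highest per kb in each family. Others named (among them *Col4a5*, *Itga1*, *Lama4*, *Col1a2* and the lists of calls) were chosen after their values were seen. Values of some members are not reported here.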

Additional observations from a re-analysis of the deposited data

Results flagged for a closer look

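One library stood apart from the other 3 of its group for 4 of the 112 combinations of named member and group, where chance gives about 1 in 20. *Col6a1* had 66.5 CPM in apoE3 replicate 4 against 22.9 to 28.2 in the others, and *Lama2* had 16.5 CPM in apoE3 replicate 1 against 12.9 to 13.2. *Itga3* was low in apoE3 replicate 3, at 24.5 CPM against 30.1 to 31.1, and *Col25a1* was low in control replicate 4, at 52.2 CPM against 74.7 to 75.5.

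Within replicate numbers, 14 differences between isoforms passed an adjusted p under 0.05 by edgeR's quasi-likelihood test. Between apoE4 and apoE3 this was *Col6a1* (log2 -0.70). Between apoE3 and apoE2 these were *Col6a1* (0.97) and *Col28a1* (-1.13). Between apoE4 and apoE2, *Itga6* (0.67), *Col1a1* (1.38), *Col13a1* (1.68), *Lama3* (0.87), *Col15a1* (1.36), *Col1a2* (0.86) and *Col22a1* (0.68) were higher with apoE4, and *Col28a1* (-1.17), *Lama2* (-0.77), *Lamb1* (-0.39) and *Col2a1* (-1.37) lower. Without the block none of the 14 passed by edgeR, and DESeq2 called *Lama2* between apoE4 and apoE2.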

How the results depend on the processing

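With the replicate block, calls at an adjusted p went from 0 without it to 10 for apoE2, 25 for apoE3 and 14 for apoE4 against control, and to 1 for apoE4 against apoE3, 11 for apoE4 against apoE2 and 2 for apoE3 against apoE2. Members at the study criterion went to 5, 11 and 5 against control and to 5 for apoE4 against apoE2 and 3 for apoE3 against apoE2 and stayed at 1 for apoE4 against apoE3. Members at an unadjusted p under 0.05 went from 5, 7, 0, 2, 6 and 2 to 33, 38, 30, 18, 23 and 23 of 77, and among all 17331 genes to 2276, 4716, 2811, 2790, 3054 and 2718. DESeq2 without the block gave 1 call for apoE4 against apoE2. The criterion count became 1 for apoE2 with at least 1 CPM in 8 libraries, 0 for apoE4 against apoE3 with the same filter, and 1 for apoE4 with no low-count filter or with filterByExpr.

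Alternatives to the blocked fit were chosen after seeing the data. DESeq2 with the block gave 20 members for apoE2, 6 for apoE4 against apoE3 and 9 for apoE3 against apoE2. With single libraries or all 4 of one number left out, blocked calls ranged over 0 to 19 for apoE2, 10 to 31 for apoE3, 1 to 18 for apoE4, 0 to 6 for apoE4 against apoE3, 2 to 12 for apoE4 against apoE2 and 1 to 3 for apoE3 against apoE2. The apoE3 count was 13 without control replicate 1, 15 without apoE3 replicate 1 or 4 and 16 without all of number 3. Without the block, leaving out 1 library gave 0 to 1 adjusted calls for apoE4 against apoE2 (1 without apoE4 replicate 2) and criterion counts of 1 to 9 for apoE3, 0 to 1 for apoE4 (1 without control replicate 1 or 4 or apoE4 replicate 2), 0 to 2 for apoE4 against apoE3 (0 without apoE3 replicate 3 or apoE4 replicate 1, 2 without apoE3 replicate 2 or apoE4 replicate 3 or 4) and 0 to 3 for apoE3 against apoE2 (0 without apoE2 replicate 1, 2 without control replicate 4 or apoE3 replicate 2, 3 without apoE2 replicate 4). No change that met the study criterion without the block reversed under the alternatives to that fit. Whether other named changes reversed is not reported here, and the causes of these shifts were not tested. Members with few reads, such as *Col2a1* and *Col13a1*, are limited by depth.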
